A study of Mus musculus with 8 samples.

Results

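Serine proteases and their inhibitors were examined in the epithelium of embryonic mouse back skin, in embryos that lacked the forkhead transcription factor Foxi3 and in wild-type embryos. The members were all gene symbols of the deposited table that begin with Serpinb, Spink, Wfdc or Tmprss, together with Klk and a digit, Prss and digits, and St14, while Prss35 and Prss23 were left out. This gave 135 of 26165 genes, each with 1 table entry. They fell into 6 families, with 27 Serpinb, 13 Spink and 15 Wfdc genes on the inhibitor side and 26 Klk, 36 Prss and 18 Tmprss genes (St14 included) on the protease side.

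The study compared 4 Foxi3 null embryos (Foxi3-/-, a total null allele) with 4 wild-type embryos (Foxi3+/+) at E15.5. All had a C57/Bl6 background and were littermates, with 4 litters in use. Null embryos were recognised by their missing jaw and genotyped, wild-type embryos were genotyped, and the epithelium of each embryo was freed from the dermis with dispase, an enzyme that cuts the basement membrane zone. Each embryo gave 1 exon array. Which embryo came from which litter is not stated. The main fit therefore treated the embryos as independent, which littermates may not be. Fits with the replicate number as a block are given further below.

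Skin serine proteases are known to work in cascades on and between keratinocytes. Matriptase, encoded by St14, and its partner prostasin, encoded by Prss8, act at the cell surface and are needed for the epidermal barrier. Secreted kallikreins cut the proteins that hold cornified cells together, so that cells can be shed, and the Spink5 product LEKTI holds them in check. Clade B serpins are mostly intracellular suicide inhibitors of serine or cysteine proteases, and the small Wfdc and Spink proteins carry compact disulfide-bonded inhibitor domains.

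Array signal depends on the probes of each gene as well as on its transcript, so levels were not used to rank genes by abundance. Values are log2 intensities, on which a difference of 1 is a doubling of the signal. A member was called dim when its mean over the 8 samples lay below the median of all genes, which was 5.22. By this measure 94 of the 135 members were dim and 41 were not, and 51 lay below the lower quartile of all genes, at 3.78. A minority of the members thus had signal above that median. No detection calls were used, so a dim member is not one shown to be absent. The families differed in this share. Of the Serpinb genes 12 of 27 were above the median, against 5 of 15 Wfdc, 7 of 26 Klk, 5 of 18 Tmprss, 11 of 36 Prss and 1 of 13 Spink genes. Close to the threshold stood Wfdc15a (5.23), Prss22 (5.24) and Prss53 (5.25) just above it, and Klk7 (5.20) and Tmprss9 (5.13) just below it.

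**Figure D1:**
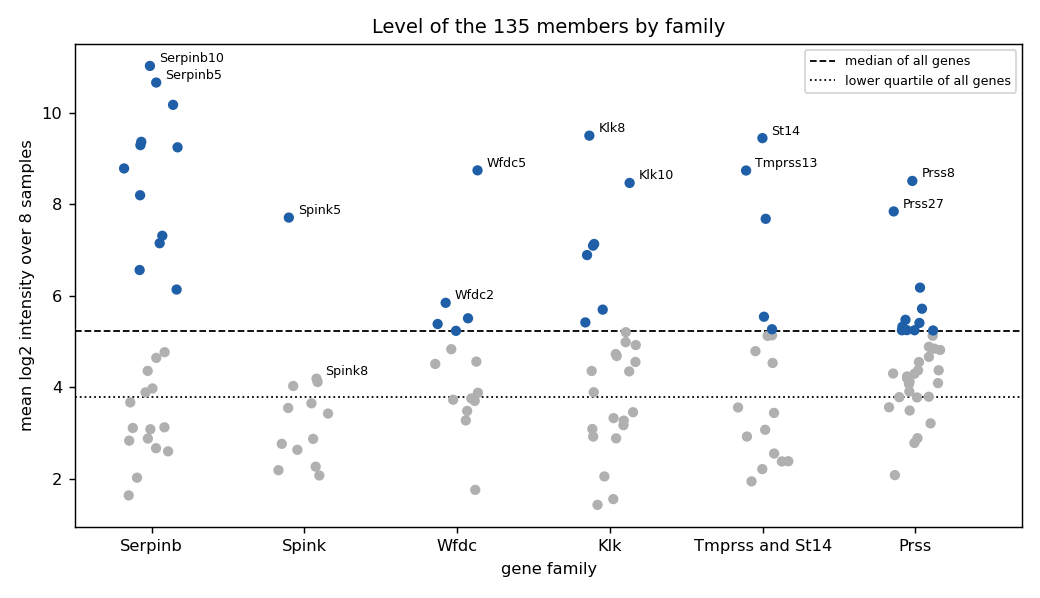
Mean log2 intensity over the 8 samples for each of the 135 members, by gene family, with 1 point per gene (blue above and grey below the median of all genes, dashed at 5.22; dotted line, lower quartile of all genes at 3.78); horizontal spread within a family has no meaning. Serpinb holds 12 points above the dashed line and Spink holds 1, Spink5.

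Within the Serpinb and Klk families the members above the median were spread unevenly along the genome, by gene order in GRCm38.p6. The 11 Serpinb genes of chromosome 1 included 10 above the median, in the order Serpinb5, Serpinb12, Serpinb13, Serpinb3a, Serpinb3d, Serpinb3b, Serpinb11, Serpinb7, Serpinb2, Serpinb10 and Serpinb8. The exception was Serpinb13 (mean 3.12), whose human counterpart inhibits cysteine cathepsins in keratinocytes. On chromosome 13, where the other 16 Serpinb genes lie, Serpinb6a (7.15) and Serpinb6b (6.14) alone passed the median, and the Serpinb1 and Serpinb9 relatives did not. Among the kallikreins of chromosome 7, 7 of the 12 genes outside the Klk1b group were above the median, and 0 of the 14 Klk1b genes, known as glandular kallikreins of the salivary gland. Genes of the Serpinb3, Serpinb6, Serpinb9 and Klk1b groups are close copies of each other, and whether their probes share signal is not stated.

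**Figure D2:**
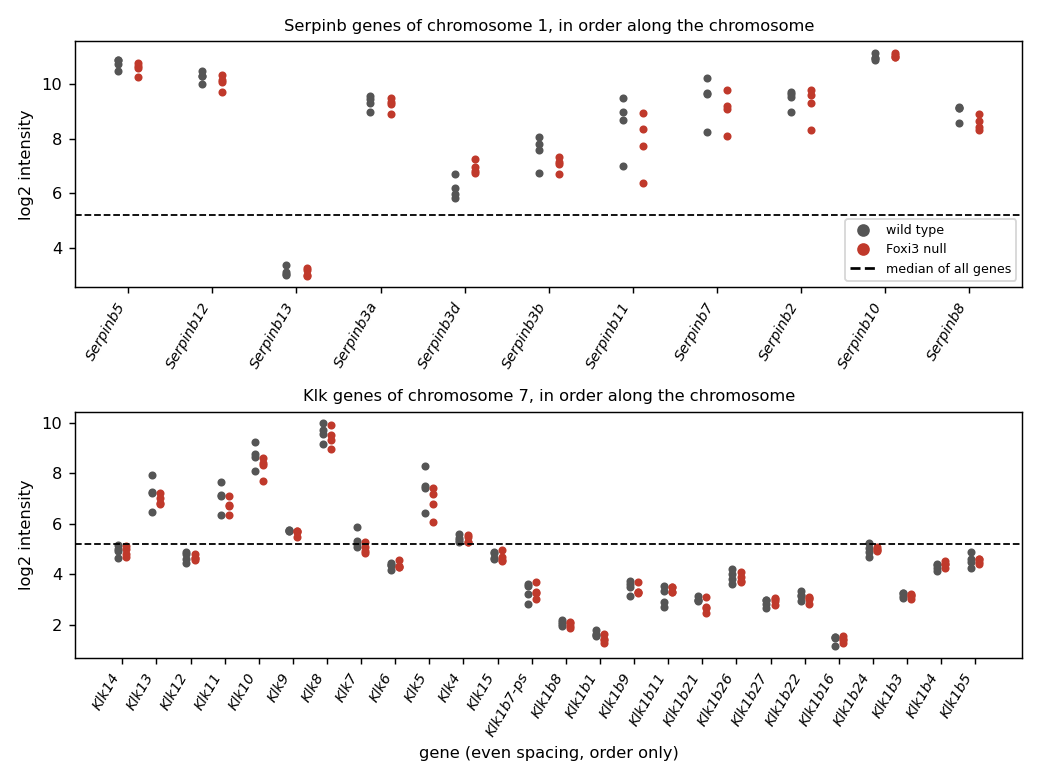
Log2 intensity in each of the 8 samples (grey wild type, red Foxi3 null, 4 points each) for Serpinb genes of chromosome 1 and Klk genes of chromosome 7, in chromosomal order at even spacing; the dashed line is the median of all genes (5.22). In the upper panel Serpinb13 is the 1 gene below the line and Serpinb3d the 1 gene whose red points all lie above the grey ones.

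The promoters of 7 members are shown because the results below turn on these genes: 3 Serpinb3 paralogs of which 1 had groups that did not overlap, 2 neighbouring serpins and 1 kallikrein with a wide spread between embryos, and Serpinb10, a neighbour with a narrow one. They are RefSeq sequences (GRCm38.p6) that run 5′ to 3′ on the strand of the gene from 250 bases before to 50 bases after the annotated start. Capitals mark matches on either strand to the AP-1 motif TGANTCA, the forkhead motif TGTTTAC, the Grainyhead-like motif AACNNGTT and the TATA box TATAAA, none of which overlapped another here.
Serpinb3a (chr1:107052254-107052553, minus strand): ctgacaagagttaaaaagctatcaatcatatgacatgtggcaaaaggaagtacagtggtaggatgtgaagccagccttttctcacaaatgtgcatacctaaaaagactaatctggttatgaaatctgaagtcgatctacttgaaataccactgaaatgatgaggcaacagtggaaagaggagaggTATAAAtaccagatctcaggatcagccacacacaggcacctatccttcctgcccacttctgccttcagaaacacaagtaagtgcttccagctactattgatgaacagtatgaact
Serpinb3d (chr1:107083431-107083730, minus strand): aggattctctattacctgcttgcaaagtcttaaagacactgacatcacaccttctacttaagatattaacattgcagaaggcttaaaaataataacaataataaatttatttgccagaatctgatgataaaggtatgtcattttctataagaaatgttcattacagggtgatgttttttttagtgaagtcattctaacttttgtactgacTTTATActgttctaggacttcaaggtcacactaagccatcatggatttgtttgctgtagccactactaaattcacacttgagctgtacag
Serpinb3b (chr1:107161065-107161364, minus strand): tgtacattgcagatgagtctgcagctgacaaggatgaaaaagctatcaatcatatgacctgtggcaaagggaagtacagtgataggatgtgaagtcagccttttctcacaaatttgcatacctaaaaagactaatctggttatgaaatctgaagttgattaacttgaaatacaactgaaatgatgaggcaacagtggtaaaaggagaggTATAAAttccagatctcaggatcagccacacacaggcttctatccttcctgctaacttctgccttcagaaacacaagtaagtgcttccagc
Serpinb11 (chr1:107362064-107362363, plus strand): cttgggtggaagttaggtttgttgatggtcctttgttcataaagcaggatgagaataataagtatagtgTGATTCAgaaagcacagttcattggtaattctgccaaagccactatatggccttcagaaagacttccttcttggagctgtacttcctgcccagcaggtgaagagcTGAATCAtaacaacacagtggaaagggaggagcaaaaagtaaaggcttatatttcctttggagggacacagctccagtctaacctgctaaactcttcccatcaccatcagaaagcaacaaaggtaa
Serpinb7 (chr1:107422439-107422738, plus strand): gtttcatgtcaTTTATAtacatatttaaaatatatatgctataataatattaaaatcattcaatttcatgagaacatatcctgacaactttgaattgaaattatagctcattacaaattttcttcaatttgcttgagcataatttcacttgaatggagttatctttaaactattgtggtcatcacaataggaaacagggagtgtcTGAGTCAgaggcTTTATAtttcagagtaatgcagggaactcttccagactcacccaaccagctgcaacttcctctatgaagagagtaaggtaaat
Serpinb10 (chr1:107528753-107529052, plus strand): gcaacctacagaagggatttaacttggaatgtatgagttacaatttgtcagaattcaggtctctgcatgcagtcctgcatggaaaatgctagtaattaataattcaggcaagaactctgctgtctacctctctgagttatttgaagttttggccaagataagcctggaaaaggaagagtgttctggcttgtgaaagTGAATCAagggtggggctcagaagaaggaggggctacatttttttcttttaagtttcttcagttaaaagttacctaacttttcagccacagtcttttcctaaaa
Klk5 (chr7:43842019-43842318, plus strand): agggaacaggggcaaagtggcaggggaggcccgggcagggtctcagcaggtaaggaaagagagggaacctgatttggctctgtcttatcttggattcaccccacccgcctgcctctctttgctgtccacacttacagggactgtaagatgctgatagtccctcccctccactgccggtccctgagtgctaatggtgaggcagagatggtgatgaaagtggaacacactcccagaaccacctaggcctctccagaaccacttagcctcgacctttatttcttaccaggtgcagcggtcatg

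Of these 7 windows, Serpinb11 held 2 AP-1 matches (181 and 76 bases before the start), Serpinb7 held 1 (45 bases before) and Serpinb10 held 1 (54 bases before), while no AP-1 match was found in those of the Serpinb3 genes and Klk5. The motif was searched in a loose form, with any base at N. The matches read TGATTCA and TGAATCA in Serpinb11, TGAGTCA in Serpinb7 and TGAATCA in Serpinb10, and whether AP-1 binds them was not tested. A TATA box stood 65 bases before the start in Serpinb3a, 41 bases before in Serpinb3b and, on the opposite strand, 40 bases before in Serpinb3d, and Serpinb7 held 2 on the opposite strand, 239 and 33 bases before. The windows of Serpinb3a and Serpinb3b shared 257 of 300 bases in a global alignment, against 166 for Serpinb3b with Serpinb3d and 155 for Serpinb3a with Serpinb3d. However, the Serpinb3d sequence after its annotated start opens with atg. Whether its window covers the same part of the gene as those of its paralogs was not tested. Its TATA position and the counts of shared bases may thus compare unlike regions. No forkhead or Grainyhead-like match lay in any of the 7. Over all 32851 promoters of the table, 7.81% held the AP-1 motif, 3.65% the forkhead motif, 4.20% the Grainyhead-like motif and 13.6% the TATA box. Of 116 promoters of 100 members found there, 12.9%, 0.862%, 4.31% and 13.8% did.

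Foxi3 itself, the targeted gene, was 8.96, 9.07, 9.20 and 8.55 in wild type 1 to 4 and 8.62, 8.43, 8.45 and 8.19 in Foxi3 null 1 to 4. It was lower in 3 of 4 null samples than in any wild-type sample, by −0.52 (SE 0.15) on the log2 scale, which missed the threshold across the table (limma adjusted p = 1.00). The position of its probes relative to the deleted part is not stated, so this does not check the labels. Across the 8 samples the preparation had the signal of epidermis, and dermal fibroblast markers had signal as well. The basal list (8 genes, among them Krt5 and Krt14) averaged 9.95 to 10.10 per sample and 8 of 8 genes were above the median. The suprabasal list (12 genes, 11 above the median) averaged 9.04 to 9.83. Neutrophil and monocyte markers were dim throughout (8 of 8 below the median, list means 3.68 to 3.90), as were 7 of 8 mast cell markers (4.06 to 4.85, highest in Foxi3 null 2). Dermal fibroblast markers averaged 6.97 to 7.35 in 7 samples and 8.90 in Foxi3 null 2. Of these 10 markers 8 were above the median and 2 below, with means over the 8 samples of 11.38 for Dcn, 11.04 for Postn and 10.74 for Vim. Dissociation stress genes averaged 7.27 to 7.68 in 6 samples, 8.64 in Foxi3 null 4 and 9.60 in wild type 4. Pearson correlations between samples over all genes lay between 0.985 and 0.995.

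No protease or inhibitor gene passed the test between Foxi3 null and wild-type epithelium in the fit without a replicate block. In limma over all 26165 genes, with Benjamini-Hochberg adjustment at 0.05, 0 of 135 members were called, where 0.0115% of all genes were, that is 3 (Pgf, Pthlh and Prss35, which the selection left out, and 0 genes without wild type 1, 2 or 4). At an unadjusted limma p under 0.05 there were 3 members, all serpins (Serpinb3d, Serpinb8 and Serpinb6d), or 2.22%, against 3.72% of all genes. In 1 member, Serpinb3d, the groups did not overlap, a share of 0.741%, where 1.95% of all genes had groups that did not overlap. All null samples were above in 1 member and below in 0, where this held for 0.871% and 1.07% of all genes. None of these member shares exceeded its background. The unadjusted count depended on single embryos, being 14 without wild type 3 (10.4% of members, 7.25% of all genes), 11 without Foxi3 null 4 (8.15% and 8.39%), 5 without Foxi3 null 2 (3.70% and 3.24%) and 1 without wild type 1 (0.741% and 3.41%). It was 2 without Foxi3 null 1 (1.48% and 3.12%) or Foxi3 null 3 (1.48% and 2.70%). Without wild type 2 it was 3 (2.22% and 2.98%), and without wild type 4 it was 4 (2.96% and 3.11%). Since the samples are bulk epithelium, fewer cells of a type and less RNA per cell cannot be told apart in any difference given here.

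The members lay below 0 more often than above it, and the ones above the median level the more so. Over all members 84 of 135 differences (Foxi3 null minus wild type) were negative, with a median of −0.03, beside a median of −0.01 and 54.0% negative over all genes. Of the 41 members above the median level 32 were negative, with a median of −0.07, beside −0.0038 and 52.0% for all 13082 genes above that level. The count of negatives was 28 under quantile normalization and 27 under median centring, where 12565 and 11966 of all 26165 genes were negative. It was 25 without Foxi3 null 3 or wild type 2 (13224 and 13081 of all genes), and 33 without Foxi3 null 4 (15745 of all genes). The median over the 41 members was −0.03 without Foxi3 null 3 and −0.13 without wild type 3. In the marker lists 11 of 12 suprabasal, 8 of 10 periderm and 9 of 9 dissociation stress genes were negative. Differences of these list means were −0.25, −0.32 and −0.37, beside a mean of −0.15 over the 41 members. Dermal fibroblast genes were positive in 10 of 10 (0.44). The groups overlapped in each of these list means, and single embryos weighed heavily in the fibroblast and stress lists. Foxi3 null 2 had a fibroblast mean of 8.90, while every remaining embryo lay between 6.97 and 7.35. Stress means were 9.60 for wild type 4, 8.64 for Foxi3 null 4 and 7.27 to 7.68 for the rest. What these lists contribute to the members' differences was not tested. Inhibitors above the median level had 13 of 18 negative (median −0.12) and proteases 19 of 23 (median −0.07). The dim members had 52 of 94 negative and a median of −0.02. By family the medians over all members were −0.07 for Klk, −0.06 for Serpinb, −0.02 for Prss and Spink, −0.01 for Tmprss with St14 and −0.0066 for Wfdc, and with the dim genes left out they were −0.25 for Klk, −0.18 for Serpinb, −0.07 for Tmprss with St14, −0.05 for Prss and −0.01 for Wfdc, Spink5 standing alone at −0.92. Kallikreins above the median level were negative in 7 of 7 genes, none of which passed the test, and in 6 of 7, Klk4 being positive, under median centring and without Foxi3 null 1, Foxi3 null 3, wild type 2 or both samples numbered 3. Their median depended on single embryos, being −0.08 without wild type 4 and −0.50 without wild type 3.

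**Figure D3:**
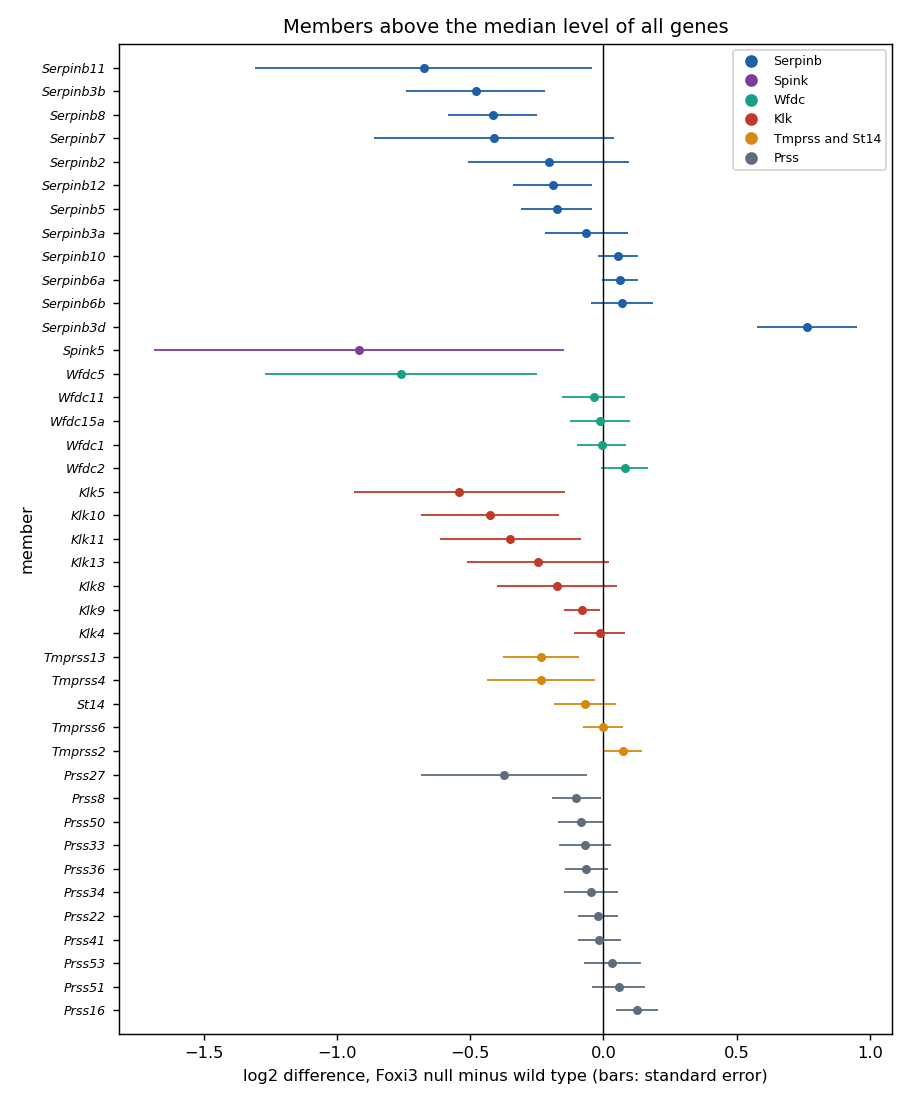
Log2 difference, Foxi3 null minus wild type, with its standard error from limma, for the 41 members above the median level, coloured by family and ordered within it. The differences run from −0.92 in Spink5 to 0.76 in Serpinb3d, 32 of 41 points lie left of 0, and none passed the test over all genes.

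Of the cell surface proteases St14 and Prss8 varied less between embryos than Tmprss13, Tmprss4 and Prss27. St14, which encodes matriptase, was 9.44, 9.50, 9.28 and 9.72 in wild type 1 to 4 and 9.27, 9.34, 9.37 and 9.69 in Foxi3 null 1 to 4. The groups overlapped almost wholly, with means of 9.49 ± 0.18 in wild-type and 9.42 ± 0.18 in Foxi3 null epithelium (SD, n = 4 each) and a difference of −0.07 (SE 0.12), which turned to 0.00720 without wild type 4. Prss8, which encodes prostasin, was 8.71, 8.49, 8.47 and 8.60 in wild type 1 to 4 and 8.55, 8.62, 8.27 and 8.42 in Foxi3 null 1 to 4. The groups overlapped, all 8 samples lay within 0.434 log2 units, and there was a difference of −0.10 (SE 0.09). Over all genes above the median level the median range was 0.367 and the median SD within groups 0.125, so neither gene was steadier than most. Tmprss13, a membrane-bound serine protease of stratified epithelia, was 8.92, 8.83, 8.54 and 9.15 in wild type 1 to 4 and 8.71, 8.58, 8.36 and 8.85 in Foxi3 null 1 to 4, with a difference of −0.23 (SE 0.14) and overlapping groups. Tmprss4 was 7.85, 7.81, 7.38 and 8.17 in wild type 1 to 4 and 7.48, 7.73, 7.13 and 7.94 in Foxi3 null 1 to 4, a difference of −0.23 (SE 0.20), with the lowest value of each group in its sample 3 and the highest in its sample 4. Exact two-sided permutation p-values for these 4 genes were 0.571, 0.343, 0.229 and 0.4, where 0.0286 is the smallest that 4 against 4 samples allow.

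The genes that matriptase and prostasin are known to work with did not pass the test either. Of 18 measured partners 0 rose and 0 fell in limma, 12 were negative and the median was −0.06. Spint1 and Spint2, which encode Kunitz inhibitors of matriptase, were at −0.14 (SE 0.09) and −0.07 (SE 0.07). The protease-activated receptor gene F2rl1 was at −0.04 (SE 0.07) and F2r, another receptor of that family, at 0.03 (SE 0.13).

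Secreted kallikreins above the median level spread over more than 1 log2 unit between embryos in 5 of 7 genes. Klk5, thought to start the kallikrein cascade of the cornified layer, was 7.43, 7.51, 6.42 and 8.27 in wild type 1 to 4 and 6.77, 7.18, 6.09 and 7.42 in Foxi3 null 1 to 4. Wild type 4 stood highest and Foxi3 null 3 lowest, and each group's sample 3 was its lowest. The group means were 7.41 ± 0.76 in wild-type and 6.87 ± 0.58 in Foxi3 null epithelium (SD, n = 4 each), and the difference of −0.54 (SE 0.40) was smaller than the spread within wild type (exact two-sided permutation p = 0.314). Klk10 was 8.65, 8.77, 8.07 and 9.24 in wild type 1 to 4 and 8.34, 8.40, 7.70 and 8.59 in Foxi3 null 1 to 4, a difference of −0.43 (SE 0.26). Klk8, or neuropsin, was 9.70, 9.55, 9.14 and 9.99 in wild type 1 to 4 and 9.32, 9.52, 8.94 and 9.89 in Foxi3 null 1 to 4, a difference of −0.17 (SE 0.22). In both genes the ranges of the groups overlapped, and sample 3 was again the lowest and sample 4 the highest of each group. Klk7, a chymotrypsin-like enzyme of shedding, was just under the dim threshold at 5.22, 5.32, 5.09 and 5.87 in wild type 1 to 4 and 4.93, 5.08, 4.84 and 5.29 in Foxi3 null 1 to 4, a difference of −0.34 (SE 0.17). Its 4 null values lay between 4.84 and 5.29, overlapping wild type 1 to 3, and wild type 4 stood above all other samples. Klk11 at −0.35 (SE 0.26) and Klk13 at −0.25 (SE 0.27) were named after their values were seen. Klk14, active in human cornified layer, and Klk6 were dim and at −0.02 (SE 0.13) and 0.03 (SE 0.09). Of the Klk1b genes, Klk1b21 was at −0.28 (SE 0.13) and Klk1b1 at −0.20 (SE 0.09), both below the lower quartile of all genes.

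Among the Prss genes other than Prss8, Prss27 alone had a wide spread above the median level. Prss27, or marapsin, an epithelial membrane-anchored protease, was 8.24, 8.25, 7.37 and 8.27 in wild type 1 to 4 and 7.74, 7.85, 6.81 and 8.25 in Foxi3 null 1 to 4. Wild type 3 stood below the other wild-type samples, which lay close together, and in the null group sample 3 was lowest as well. The difference was −0.37 (SE 0.31). Prss36 was at −0.07 (SE 0.08) and Prss16, known as a thymus-specific protease, at 0.13 (SE 0.08), with all 8 values within 0.289 and 0.278 log2 units. Prss57, known in human as a neutrophil granule protease, was dim at −0.14 (SE 0.08). The dim protease genes Tmprss9 and Tmprss11bnl were at −0.10 (SE 0.07) and −0.23 (SE 0.11). Tmprss11f, dim by its mean of 4.79 and named after its values were seen, reached 6.14 in wild type 4 and was 3.69 in wild type 3, with a difference of −0.54 (SE 0.46).

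Spink5 had the widest spread of all 135 members and was the 1 Spink gene above the median level. Its product LEKTI is an inhibitor of kallikreins, and loss of the human gene causes Netherton syndrome. Spink5 was 8.34, 8.79, 6.03 and 9.53 in wild type 1 to 4 and 6.998, 7.48, 5.93 and 8.61 in Foxi3 null 1 to 4. In each group sample 3 was the lowest and sample 4 the highest, and the ranges overlapped widely. Group means were 8.17 ± 1.51 in wild-type and 7.25 ± 1.11 in Foxi3 null epithelium (SD, n = 4 each), and the difference of −0.92 (SE 0.77) was smaller than the SD of either group (exact two-sided permutation p = 0.371). Without wild type 3 it was −1.63, and without both samples numbered 3 it was −1.19, and neither passed limma. Spink8, dim, was 4.10, 4.37, 4.13 and 4.97 in wild type 1 to 4 and 3.90, 3.77, 3.63 and 4.63 in Foxi3 null 1 to 4, with a difference of −0.41 (SE 0.25). Sample 4 was the highest of each group, and all wild-type samples but sample 4 lay below Foxi3 null 4. Spink4 was at −0.02 (SE 0.08), Spink3, a trypsin inhibitor of the pancreas, at 0.13 (SE 0.11) and Spink11 at −0.11 (SE 0.06), all dim.

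Among the Wfdc genes the spread was similarly held by 1 gene. Wfdc5 was 9.10, 9.49, 7.999 and 9.92 in wild type 1 to 4 and 8.42, 8.84, 7.06 and 9.15 in Foxi3 null 1 to 4. Both samples numbered 3 were the lowest of their group and both numbered 4 the highest, and 3 of 4 wild-type samples exceeded 3 of 4 null samples. The difference was −0.76 (SE 0.51), with means of 9.13 ± 0.82 in wild-type and 8.37 ± 0.92 in Foxi3 null epithelium (SD, n = 4 each) and an exact two-sided permutation p of 0.314. Wfdc2 was at 0.08 (SE 0.09) and Wfdc1 at −0.0066 (SE 0.09), and their 8 values lay within 0.379 and 0.317 log2 units. Dim Wfdc genes were at 0.06 (SE 0.09) for Wfdc12, −0.21 (SE 0.14) for Wfdc10, 0.12 (SE 0.07) for Wfdc8 and −0.14 (SE 0.09) for Wfdc6a.

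The clade B serpins of chromosome 1 held both steady and variable genes side by side. Serpinb5, or maspin, was 10.90, 10.74, 10.48 and 10.91 in wild type 1 to 4 and 10.61, 10.67, 10.27 and 10.77 in Foxi3 null 1 to 4, a difference of −0.18 (SE 0.13). Serpinb12 was 10.48, 10.30, 10.01 and 10.31 in wild type 1 to 4 and 10.10, 10.36, 9.71 and 10.18 in Foxi3 null 1 to 4, a difference of −0.19 (SE 0.15). In both genes Foxi3 null 3 was the lowest of all samples and the groups overlapped. Serpinb10, first described in blood cells, was 11.17, 10.90, 10.98 and 10.98 in wild type 1 to 4 and 11.01, 10.99, 11.15 and 11.08 in Foxi3 null 1 to 4, within 0.272 log2 units in all samples and with a difference of 0.05 (SE 0.08), while neutrophil and monocyte markers were dim. Serpinb2, which encodes plasminogen activator inhibitor 2, was 9.72, 9.53, 9.002 and 9.64 in wild type 1 to 4 and 9.32, 9.63, 8.34 and 9.79 in Foxi3 null 1 to 4. Foxi3 null 3 stood low, and the difference of −0.21 (SE 0.30) turned to 0.10 without it.

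Serpinb7 and Serpinb11, neighbours named after their values were seen, spread further. Serpinb7, mutated in a human keratoderma of palms and soles, was 9.65, 9.69, 8.26 and 10.22 in wild type 1 to 4 and 9.08, 9.22, 8.09 and 9.79 in Foxi3 null 1 to 4, a difference of −0.41 (SE 0.45). Serpinb11 was 8.68, 8.996, 6.99 and 9.49 in wild type 1 to 4 and 7.75, 8.37, 6.40 and 8.94 in Foxi3 null 1 to 4, a difference of −0.68 (SE 0.63). In each gene both samples numbered 3 lay below all 6 others, and the genotype difference was smaller than the distance between wild type 3 and wild type 4. Serpinb8, linked to a human peeling skin disorder, was 9.12, 9.12, 8.59 and 9.16 in wild type 1 to 4 and 8.43, 8.66, 8.31 and 8.92 in Foxi3 null 1 to 4, with a difference of −0.42 (SE 0.17). Here 3 of 4 wild-type samples lay above all null samples, wild type 3 being the exception (exact two-sided permutation p = 0.0857, limma adjusted p = 1.00). On chromosome 13 Serpinb6a was at 0.06 (SE 0.07), and Serpinb6d, below the lower quartile of all genes, at −0.18 (SE 0.07).

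Of the Serpinb3 paralogs, mouse relatives of human squamous cell carcinoma antigens, Serpinb3d was higher in every null sample and the others were not. Serpinb3d was 6.19, 5.99, 6.72 and 5.84 in wild type 1 to 4 and 6.75, 7.25, 6.96 and 6.82 in Foxi3 null 1 to 4. Every null sample exceeded every wild-type sample, the closest being Foxi3 null 1 and wild type 3. Serpinb3d was higher in null epithelium by 0.76 (SE 0.19), a ratio of 1.70, from 6.18 ± 0.38 in wild-type and 6.95 ± 0.22 in Foxi3 null epithelium (SD, n = 4 each), and it missed the threshold across the table (limma adjusted p = 1.00, exact two-sided permutation p = 0.0286). Its neighbour Serpinb3b was 7.81, 7.59, 6.76 and 8.06 in wild type 1 to 4 and 7.06, 7.35, 6.72 and 7.17 in Foxi3 null 1 to 4, a difference of −0.48 (SE 0.26). In Serpinb3b wild type 4 was the highest sample, whereas the same embryo was the lowest in Serpinb3d. Serpinb3a was 9.59, 9.30, 8.97 and 9.46 in wild type 1 to 4 and 9.37, 9.49, 8.92 and 9.29 in Foxi3 null 1 to 4, a difference of −0.06 (SE 0.16) with overlapping groups, which turned positive without wild type 1 or Foxi3 null 3. Both Serpinb3a and Serpinb3b were named after their values were seen, the paralogs may share probe signal, and the difference between them was not tested. Over all settings tried, the Serpinb3d difference stayed between 0.65 and 0.94.

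**Figure D4:**
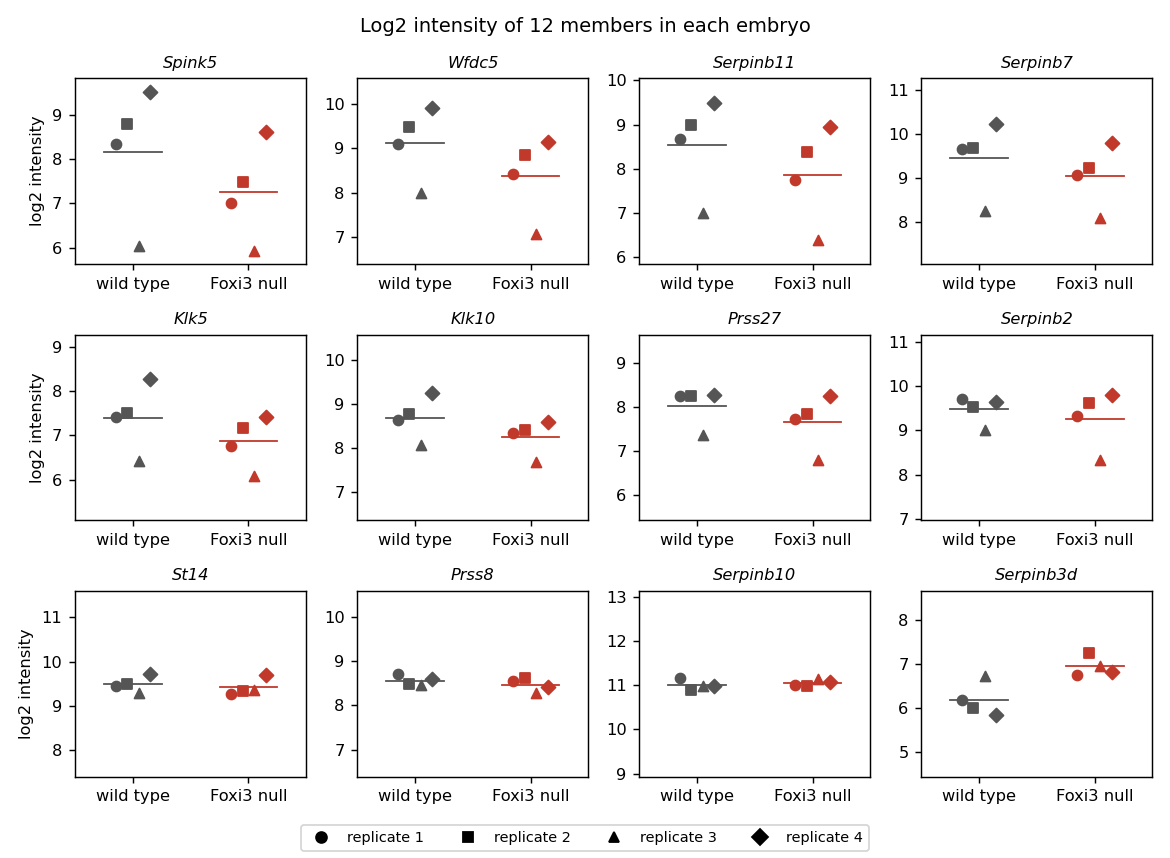
Log2 intensity of 12 members in each embryo, wild type in grey and Foxi3 null in red, with the marker shape giving the replicate number and the line the group mean; every panel spans 4.2 log2 units. The triangle (replicate 3) is the lowest of its group on both sides in Spink5, Wfdc5, Serpinb11, Serpinb7, Klk5, Klk10, Prss27, Serpinb2 and Prss8. At this scale St14, Prss8 and Serpinb10 are nearly flat, and in Serpinb3d all red points lie above the grey ones.

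The spread between embryos thus fell on a subset of members and ran the same way in most of them. Of the 41 members above the median level 14 had a range over 1 log2 unit across the 8 samples, a share of 34.1%, beside 5.01% of all genes above that level. These 14 were Klk5, Klk8, Klk10, Klk11, Klk13, Prss27, Tmprss4, Spink5, Wfdc5, Serpinb2, Serpinb3b, Serpinb3d, Serpinb7 and Serpinb11. In 13 of the 14, Serpinb3d being the exception, Foxi3 null 3 and wild type 3 were the lowest samples of their groups, which held for 54.8% of the 655 genes with so wide a range above the median level. Wild type 4 was the highest of all 8 samples in 12 of the 14, beside 60.6% of those genes. The mean of the 14 was 8.27, 8.31, 7.35 and 8.73 in wild type 1 to 4 and 7.77, 8.03, 7.09 and 8.33 in Foxi3 null 1 to 4. For the other 27 members above the median level it stayed between 6.65 and 6.87. The 14 genes were picked by their range, so these counts describe them and test nothing.

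Several marker lists moved with the same samples. The suprabasal mean was 9.69, 9.68, 9.28 and 9.83 in wild type 1 to 4 and 9.37, 9.45, 9.04 and 9.59 in Foxi3 null 1 to 4, lowest in both samples numbered 3 and highest in both numbered 4. The periderm list mean did the same, with 9.33, 9.36, 8.66 and 9.53 in wild type and 8.75, 8.96, 8.52 and 9.36 in Foxi3 null 1 to 4. Of its 10 genes 7 were lowest in both samples numbered 3 and 5 highest in both numbered 4, beside 15.8% and 20.3% of all genes above the median level. Cldn6, a periderm claudin gene, ran the opposite way, at 7.24 and 8.02 in wild type 3 and Foxi3 null 3 and 5.57 and 6.65 in wild type 4 and Foxi3 null 4. Basal markers varied less, from 9.95 to 10.02 in null and 10.01 to 10.10 in wild-type samples. Dissociation stress genes were highest in both samples numbered 4 but were not lowest in those numbered 3 (7.63 in wild type 3 and 7.53 in Foxi3 null 3). The part of these lists in the protease and inhibitor values was not tested.

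Genes that the kallikreins are known to act on, and other enzymes of shedding and filaggrin processing, lay low as well without passing. Of 25 genes 0 rose and 0 fell in limma, 22 were negative and the median was −0.11. Cdsn, which encodes corneodesmosin, was at −0.23 (SE 0.12), and the desmoglein genes Dsg1a, Dsg1b and Dsg1c were at −0.14 (SE 0.09), −0.18 (SE 0.11) and −0.11 (SE 0.11), the last one dim. In 14 of the 25 (56.0%) both samples numbered 3 were the lowest of their group, beside 11.6% of all genes and 15.8% of those above the median level. Among 26 other protease inhibitors 0 rose and 0 fell, 14 were negative and the median was −0.03. Slpi, which encodes the secretory leukocyte protease inhibitor, was at −0.05 (SE 0.13), and Cst3, which encodes cystatin C, at −0.11 (SE 0.08), while Spint1 and Spint2 are given above.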

How the data were processed

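Epithelial RNA of 8 embryos was hybridised to Affymetrix MoEx-1_0-st-v1 arrays, per the file headers. The deposited values are log2 intensities for 26165 Ensembl genes that the authors obtained with RMA, per the submitters' processing notes. Sources used here do not give the RMA version, annotation, build or filters. Sample values were taken from the value table named by sample, symbols and group means from the deposited gene table, and 8 further columns that match no sample by name were not used. The number of arrays limits the precision.

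Groups were compared with limma 3.58.1 in R 4.3.3 (lmFit, eBayes, two-sided, no covariate) on the whole table, and single values by an exact permutation test over 70 arrangements. The fit was tested on simulated data. Members, gene lists and tests were chosen with earlier results of these data known. Members named were, per family, the 3 of highest mean and the 3 of lowest unadjusted p, with 15 fixed genes, 37 in all, and 9 more named after their values were seen. Of each gene list the first 4 measured genes are named. Skeletal muscle markers (8 of 8 negative) averaged 4.68 to 4.83 in null and 4.75 to 5.09 in wild-type samples. Of 135 members, 133 matched RefSeq by symbol and 2 by synonym.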

Additional observations from a re-analysis of the deposited data

Results flagged for a closer look

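In 4 of 108 sets of 4 embryos tested, 1 sample lay so far from the rest that its gap to the nearest other made up more than 0.829 of the group's range. Chance alone gives about 1 in 20 such sets. Wild type 3 was low for Prss27, with a gap share of 0.975, and for Serpinb8, with 0.922. Wild type 1 was high for Prss16, with 0.874, at 5.43 beside 5.31 to 5.32 in the other wild-type samples. Foxi3 null 4 was high for the dim gene Wfdc10, with 0.902.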

How the results depend on the processing

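Besides the fit described above, 20 settings were tried, 3 of them chosen after seeing the data (leaving out both samples numbered 3 or both numbered 4, and the replicate block with trend and robust moderation). The count of members past the limma adjusted threshold was 0 in all of them but the last, in which 2 members, Wfdc5 (adjusted p = 0.0171) and Serpinb11 (adjusted p = 0.0291), and 71 genes in all passed. With the replicate block alone 0 genes passed the limma threshold, and the lowest limma adjusted p of a member was 0.0794. There 20 members (14.8%, 19 lower in null) had an unadjusted limma p under 0.05, beside 2339 genes (8.94%). With trend and robust moderation added, the shares were 15.6% of members and 10.2% of all genes. They were 7.41% and 4.81% without both samples numbered 3, and 5.93% and 6.45% without both numbered 4. The member share thus exceeded that of all genes with the block, unlike in the main fit. The replicate numbers were not taken to pair embryos, because their deviations from the group means correlated at 0.130, −0.0435, 0.490 and 0.358 for pairs 1 to 4, so that 1 pair was not above 0.1. These correlations cannot exclude that embryos of the same number shared a litter, since no label ties a number to a litter. As a hint from the data, 3 of 4 null samples (all but Foxi3 null 2) and 2 of 4 wild-type samples correlated best with the sample of their own number. The count over all genes was also 0 in limma without variance moderation (868 at an unadjusted p under 0.05) and without both samples numbered 4 (1688), and it ran from 0 to 4 when single embryos were left out. With genes below the median level left out, the family medians were −0.25 for Klk, −0.18 for Serpinb and −0.92 for Spink, since fewer genes enter. Small differences changed sign: Wfdc1 to 0.00425 under quantile normalization, 0.0116 under median centring and 0.0188 without both samples numbered 3, Spink4 to 0.00115 and 0.000958 under those scalings, Klk14 to 0.00532, 0.00311 and, with the sex covariate, 0.00652, Klk6 to −0.0181 with array weights and −0.0385 without both samples numbered 4, and Wfdc2 to −0.0124 there. Leaving out single embryos gave −0.0732 to 0.05001 for Wfdc1, −0.0619 to 0.0212 for Spink4, −0.11 to 0.0613 for Klk14, −0.0428 to 0.0655 for Klk6, −0.00502 to 0.11 for Wfdc12, −0.0935 to 0.0410 for Serpinb13, −0.18 to 0.0512 for Serpinb3a, −0.38 to 0.10 for Serpinb2 and −0.16 to 0.00720 for St14. The cause was not tested. Choosing another table entry per symbol was not run, as each member has 1, and the table named by sample, planned as an alternative, became the main one because the other table's columns could not be tied to samples.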

Other observations

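A few listed genes outside the families above had larger differences than most members, in both directions. Stfa3, which encodes a stefin, an inhibitor of cysteine cathepsins, was at −1.03 (SE 0.62), its dim relative Stfa2 at −0.98 (SE 0.39), and Hrnr, which encodes the cornified envelope protein hornerin, at −1.10 (SE 0.80). On the other side Serping1, which encodes the C1 inhibitor of complement, was at 0.62 (SE 0.18) and Reck, which encodes a membrane-anchored inhibitor of metalloproteases, at 0.59 (SE 0.46), with 7.85 in Foxi3 null 2 and 5.42 to 5.81 in the other 7 samples. Serpinh1, which encodes a collagen chaperone, was at 0.24 (SE 0.08), every null sample lying above every wild-type one, as in 0.871% of all genes. None of these passed limma over all genes, and all were chosen after their values were seen.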
